A study of Mus musculus with 7 samples.

Results

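Voltage-gated sodium and calcium channels were examined in adult mouse oligodendrocyte lineage cells (OLCs), from their progenitors (OPCs) to mature oligodendrocytes (MOLs). The genes were taken by symbol from the deposited table of unique molecular identifiers (UMIs, each a tagged RNA molecule): every sodium channel alpha (Scn followed by a number and a) and beta subunit (a number and b), and every calcium channel alpha1 (Cacna1), alpha2delta (Cacna2d), beta (Cacnb) and gamma (Cacng) subunit. This gave 39 of the 27998 genes in the table, by a rule that reads symbols and no measured value. Of these, 23 had at least 50 UMIs over the 9291 annotated cells, 9 had between 1 and 35 (among them Cacna1g, Cacna1i, Cacnb2, Cacng1, Cacng2, Cacng3, Cacng6 and Scn7a), and 7 had none (Cacna1f, Cacna1s, Scn10a, Scn11a, Scn4a, Scn4b and Scn9a). The table lists Scn2a under its older symbol Scn2a1, which the symbol pattern did not take in, and its values are given beside the others.

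Cells came from C57BL/6-B6CBA mice of both sexes at P90 (11 to 14 weeks), and were sorted by reporter colour. The labels give the tissue as motor and cingulate cortex, whereas the methods of the study name the neocortex and the corpus callosum. Control dOLCs were TdTom+ cells of Emx1-Cre:Sox10-GFP-TdTom mice, in which Emx1-Cre, active in the dorsal forebrain, switches the Sox10 reporter from GFP to TdTom. Control vOLCs were the GFP+ cells of the same genotype, and so had escaped that recombination. Ectopic vOLCs were the GFP+ cells of mice that carried Sox10-GFP-DTA beside Emx1-Cre and Sox10-GFP-tdTom, in which Cre also turns on diphtheria toxin fragment A under Sox10 in dorsally derived cells; Emx1-Cre and the Sox10 reporter were thus shared by all groups, and the toxin allele was carried by the ablated mice alone. The labels count 4 control mice and 2 that were ablated. Their cells are not told apart by mouse, so each group is 1 library, no test between groups was possible, and the mouse and the condition cannot be told apart.

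Voltage-gated sodium and calcium channels open when a membrane depolarizes and are best known from neurons, but OPCs also carry both, together with glutamate receptors that receive synaptic input. Sodium and calcium alpha subunits form the pore, and sodium beta, calcium beta and alpha2delta subunits set how many channels reach the membrane and how they gate. Most gamma genes encode TARPs, auxiliary subunits of AMPA glutamate receptors rather than of calcium channels.

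The libraries held 5804, 925 and 2562 annotated cells (control dOLCs, control vOLCs and ectopic vOLCs, in this order throughout) with 23078181, 4846391 and 14293675 UMIs, and 39 barcode sequences of these cells occurred in 2 libraries. OPCs and MOL5/6 fit their names, and most other clusters were not checked against markers: OPC markers (Pdgfra, Cspg4, Ptprz1, C1ql1 and Vcan) summed to between 8471 and 10681 UMIs per 1000000 (CPM) in OPCs and to between 52.3 and 122 in MOL5/6, the 4 joined clusters of the largest mature class. The 9 neuronal markers summed to between 112 and 137 CPM in OPCs and 18.3 and 22.6 in MOL5/6. In OPCs Snap25 (60.9, 73.5 and 66.5 CPM) and Gad1 (35.8, 40.5 and 30.8) made up most of that sum, while Rbfox3 and Slc17a7 were at 0 in both vOLC libraries; their part in the OPC levels below was not tested. MOL markers summed to 8210, 4626 and 4389 in OPCs and microglial markers in OPCs to between 0 and 2.53. OPCs numbered 853, 121 and 330 with a median of 2795, 3454 and 3421.5 UMIs a cell. MOL5/6 cells numbered 3777, 561 and 1842 with a median of 3491, 5069 and 5478.5.

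Reference promoters are shown for 3 genes that stand for the patterns below: Cacna1e, far higher in OPCs; Cacna2d1, found in OPCs and MOLs and lower in ectopic MOL5/6; and Cacnb4, found in every cluster. The sequences are those of RefSeq (GRCm38.p6), 300 bases around a transcription start, 5′ to 3′, with matches to ACAAAG or ACAATG (the core letters of SOX family sites) or to CAGCTG (an E-box) on either strand in capitals.
Cacna1e promoter (chr1:154725871-154726170, minus strand): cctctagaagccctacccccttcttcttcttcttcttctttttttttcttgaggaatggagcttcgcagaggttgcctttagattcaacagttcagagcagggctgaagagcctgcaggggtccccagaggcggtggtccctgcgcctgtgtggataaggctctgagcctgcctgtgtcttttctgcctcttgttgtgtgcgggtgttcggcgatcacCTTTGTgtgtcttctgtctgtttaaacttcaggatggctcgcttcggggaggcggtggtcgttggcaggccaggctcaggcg
Cacna2d1 promoter (chr5:15934441-15934740, plus strand): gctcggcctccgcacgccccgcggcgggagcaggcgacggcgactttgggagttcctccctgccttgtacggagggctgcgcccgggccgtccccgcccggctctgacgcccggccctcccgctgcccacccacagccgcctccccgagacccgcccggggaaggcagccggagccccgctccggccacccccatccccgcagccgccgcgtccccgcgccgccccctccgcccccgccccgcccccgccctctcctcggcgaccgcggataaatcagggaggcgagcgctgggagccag
Cacnb4 promoter (chr2:52558562-52558861, minus strand): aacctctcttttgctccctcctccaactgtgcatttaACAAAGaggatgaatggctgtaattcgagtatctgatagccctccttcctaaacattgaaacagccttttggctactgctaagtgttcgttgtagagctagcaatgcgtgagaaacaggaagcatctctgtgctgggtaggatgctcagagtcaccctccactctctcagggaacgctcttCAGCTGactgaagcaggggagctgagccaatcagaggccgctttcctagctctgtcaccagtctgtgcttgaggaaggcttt
Cacna1e held 1 ACAAAG in reverse, Cacna2d1 held none of these motifs, and this Cacnb4 start, 1 of 3 listed, held an ACAAAG and a CAGCTG. Promoters were listed for 29 of the 39 genes, 39 starts in all. Either SOX motif was in 9 of these starts and in 28.6% of all 32851 promoters, and CAGCTG in 13 and in 16.3%. The matches are a description of letters and say nothing of binding.

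OPCs held more of the channel RNA than their share of the cells. They made up 14.0% of the annotated cells (1304 of 9291) and held 48.3% of the 11360 channel UMIs. The TARP gene Cacng4 alone gave 2601 of the UMIs in OPCs, and without it OPCs held 34.3% of the rest. Of the 23 genes with at least 50 UMIs, 21 were higher in OPCs than in MOL5/6 in each of the 3 libraries, where 60.2% of all genes with as many UMIs were, and 17 were at least 4-fold higher in each, where 14.6% of all genes were. Cacnb4 and Cacna2d4 were higher in MOL5/6 in each library. Many of the 23 reached 50 UMIs mainly through OPCs (Cacna2d2 had 159 UMIs there and 5 in MOL5/6), so that these counts describe the genes that passed and not all 39. The clusters were made from the same cells, so that these differences are descriptions and carry no test. The ratios below carry 95% intervals from the counts, which cover counting error only.

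**Figure D1:**
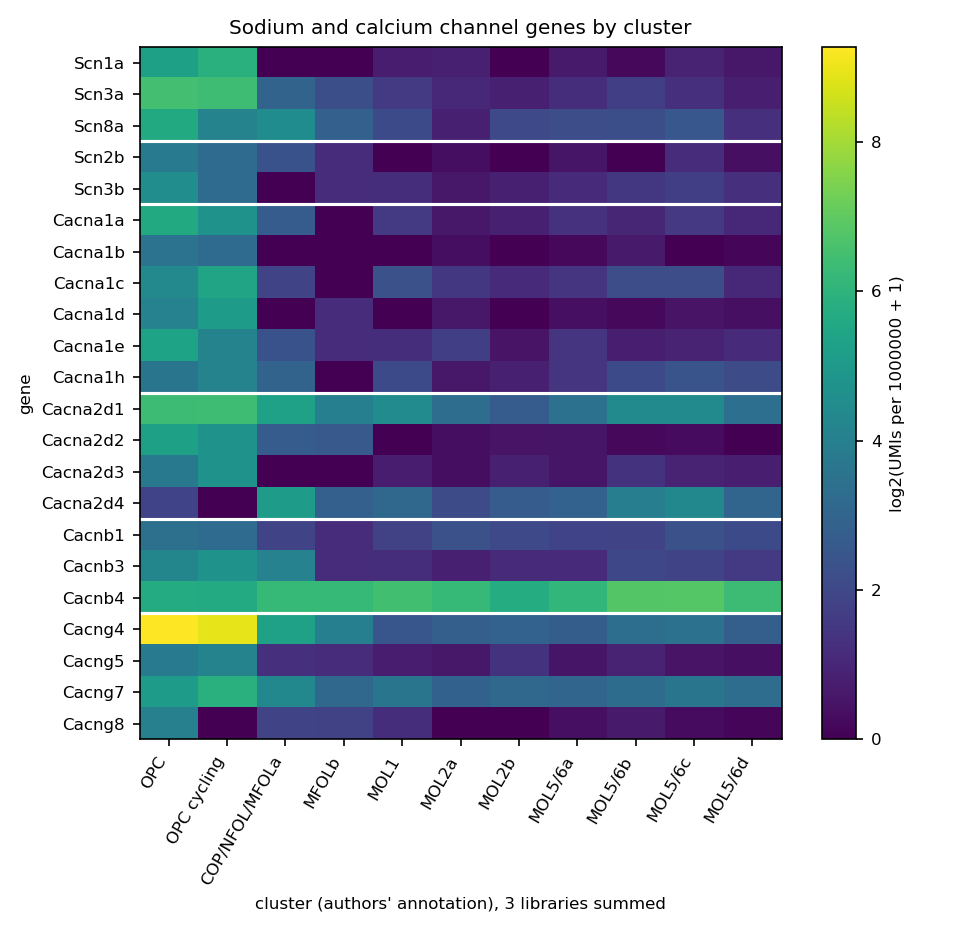
Level of channel genes with at least 50 UMIs (rows, by subunit class) in the 11 clusters (columns), as log2(UMIs per 1000000 + 1) over the 3 libraries summed. Most rows are bright only in OPC and cycling OPC, while Cacnb4 is present across all clusters and Cacna2d4 is brightest in COP/NFOL/MFOLa.

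Counting a gene as higher at 4-fold or more with an interval that leaves out no difference, 13 of the 18 genes with at least 50 UMIs in control dOLCs were higher in OPCs and 1, Cacna2d4, was lower, against 13.9% and 2.12% of all genes. In ectopic vOLCs 8 of 11 were higher and none lower, against 13.6% and 4.52% of all genes, and in the small control vOLC library 4 of 5 and none, against 8.60% and 5.89%. The median log2 ratio of the channel genes was 3.18 for control dOLCs, 2.37 for the control vOLC library and 4.16 for ectopic cells. Over all genes tested it was 0.49, 0.29 and 0.66. Here too genes passed the filter mainly through OPCs (Cacna2d2 had 98 UMIs there and 3 in MOL5/6 in control dOLCs). These counts and medians thus describe the genes that passed and not every channel gene.

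Among the sodium channel pores, Scn3a, prominent in immature neurons, stood at 93.3, 106 and 72.4 CPM in OPCs (245, 42 and 87 UMIs) and at 1.48, 3.08 and 0.757 in MOL5/6 (22, 9 and 8 UMIs). Scn1a, a pore of inhibitory neurons, stood at 41.9, 45.6 and 25.0 CPM in OPCs (110, 18 and 30 UMIs) and at 0.674, 0.342 and 0.284 in MOL5/6 (10, 1 and 3 UMIs). Scn8a, the pore of mature nodes of Ranvier, stood at 48.4, 60.8 and 45.7 CPM in OPCs (127, 24 and 55 UMIs) and at 3.23, 4.11 and 2.55 in MOL5/6 (48, 12 and 27 UMIs). Each of these genes was higher in OPCs than in MOL5/6 in each library. Scn2a1 showed the same order, with 64.8, 83.6 and 63.2 CPM in OPCs (170, 33 and 76 UMIs) and 3.03, 2.40 and 2.36 in MOL5/6 (45, 7 and 25 UMIs). Summed over the class, the log2 ratio of OPC to MOL5/6 was 5.09 (4.75 to 5.45), 4.85 (4.16 to 5.60) and 5.39 (4.88 to 5.93).

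Of the sodium beta subunits, which modulate gating, Scn3b stood at 23.6, 30.4 and 17.5 CPM in OPCs (62, 12 and 21 UMIs) and at 1.75, 2.74 and 1.13 in MOL5/6 (26, 8 and 12 UMIs). Scn2b, which rested on few molecules, stood at 13.7, 25.3 and 7.49 CPM in OPCs (36, 10 and 9 UMIs) and at 0.337, 1.03 and 0.378 in MOL5/6 (5, 3 and 4 UMIs). Both were higher in OPCs in each library.

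The calcium channel pores also lay on the OPC side. Cacna1a, the P/Q-type pore, stood at 46.5, 50.7 and 51.6 CPM in OPCs (122, 20 and 62 UMIs) and at 1.21, 0.685 and 1.51 in MOL5/6 (18, 2 and 16 UMIs). Cacna1e, the R-type pore, stood at 40.8, 48.1 and 39.1 CPM in OPCs (107, 19 and 47 UMIs) and at 0.741, 3.08 and 1.13 in MOL5/6 (11, 9 and 12 UMIs). These OPC values differed little between libraries, with overlapping counting intervals. Of the L-type pores, Cacna1c stood at 20.6, 20.3 and 17.5 CPM in OPCs (54, 8 and 21 UMIs) and at 2.83, 3.77 and 0.946 in MOL5/6 (42, 11 and 10 UMIs). Cacna1d stood at 16.0, 17.7 and 15.8 CPM in OPCs (42, 7 and 19 UMIs) and at 0.270, 0 and 0.378 in MOL5/6 (4, 0 and 4 UMIs). Both were higher in OPCs in each library, and Cacna1d had few UMIs in MOL5/6. Cacna1b, the N-type pore, stood at 10.3, 7.60 and 12.5 CPM in OPCs (27, 3 and 15 UMIs) and at 0.202, 0.342 and 0.189 in MOL5/6 (3, 1 and 2 UMIs). Cacna1h, a low-voltage T-type pore, was the closest to even in control dOLCs and ectopic vOLCs, at 10.7, 15.2 and 10.8 CPM in OPCs (28, 6 and 13 UMIs) and 3.03, 1.71 and 3.59 in MOL5/6 (45, 5 and 38 UMIs), with a log2 ratio of 1.81 (1.08 to 2.53) in control dOLCs. Cacna1g, the T-type gene with 35 UMIs in all, had 31 of them in OPCs.

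The alpha2delta genes, whose products carry calcium channels to the membrane and bind gabapentin in the case of Cacna2d1 and Cacna2d2, split by stage. Cacna2d2 was found mainly in OPCs, and stood at 37.3, 55.7 and 32.4 CPM in OPCs (98, 22 and 39 UMIs) and at 0.202, 0 and 0.189 in MOL5/6 (3, 0 and 2 UMIs). Cacna2d1 stood at 84.6, 86.1 and 71.5 CPM in OPCs (222, 34 and 86 UMIs) and at 17.9, 20.5 and 7.28 in MOL5/6 (265, 60 and 77 UMIs), so that MOLs kept part of it. Cacna2d3, the least counted of the OPC-side genes of the class, stood at 13.0, 10.1 and 12.5 CPM in OPCs (34, 4 and 15 UMIs) and at 1.21, 0.685 and 0.473 in MOL5/6 (18, 2 and 5 UMIs). Cacna2d4, known from photoreceptors, ran the other way, at 3.43, 2.53 and 0.832 CPM in OPCs (9, 1 and 1 UMIs) and at 14.9, 14.0 and 4.45 in MOL5/6 (221, 41 and 47 UMIs). In both controls it was highest in the cluster of committed precursors and newly formed and early myelin-forming oligodendrocytes (COP/NFOL/MFOLa), at 38.1 and 57.4 CPM from 19 and 5 UMIs, while ectopic cells of that cluster held 1 UMI (6.69 CPM) and stood at 11.9 in MFOLb and 9.35 in MOL5/6c, each from 3 UMIs. In that cluster of 111 cells Cacnb3 stood at 16.3 CPM over the 3 libraries (11, 0 and 1 UMIs) and Scn8a at 21.8 (12, 4 and 0 UMIs), the latter between its 48.8 in OPCs and 4.78 or less in the MOL clusters, while Scn1a had no UMI.

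Cacnb4, a calcium channel beta subunit that brings the pore to the membrane, was present at every stage. It stood at 54.1, 48.1 and 47.4 CPM in OPCs (142, 19 and 57 UMIs) and at 99.3, 87.7 and 78.5 in MOL5/6 (1473, 256 and 830 UMIs), where it supplied 2559 UMIs. A UMI of it was found in 29.7%, 34.2% and 33.7% of MOL5/6 cells and in 15.2%, 14.9% and 14.5% of OPCs, and with each cell thinned to 1000 UMIs in 10.0%, 9.45% and 7.82% and in 6.21%, 7.44% and 2.42%. MOL markers summed to 8210, 4626 and 4389 CPM in OPCs and to 44143.5, 54279.5 and 50516.6 in MOL5/6. Their part in the OPC levels of Cacnb4 and Cacna2d4 was not tested. The other beta genes lay on the OPC side. Cacnb1 stood at 9.52, 5.07 and 11.6 CPM in OPCs (25, 2 and 14 UMIs) and at 3.23, 1.03 and 3.50 in MOL5/6 (48, 3 and 37 UMIs). Cacnb3 stood at 19.0, 7.60 and 19.1 CPM in OPCs (50, 3 and 23 UMIs) and at 2.70, 2.74 and 1.23 in MOL5/6 (40, 8 and 13 UMIs).

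Cacng4, a TARP gene, stood at 610, 712 and 598 CPM in OPCs (1601, 281 and 719 UMIs) and at 10.4, 3.77 and 4.07 in MOL5/6 (155, 11 and 43 UMIs). A UMI of it was found in 76.2%, 76.0% and 79.7% of OPCs and in 4.02%, 1.96% and 2.23% of MOL5/6 cells. Thinned to 1000 UMIs a cell, the shares in OPCs were 42.3%, 44.6% and 43.6%, and those in MOL5/6 1.09%, 0.357% and 0.651%. Of the other TARP genes, Cacng2 (1 UMI in OPCs and 7 in MOL5/6) and Cacng3 (2 and 3) were too low to place. Cacng5 stood at 13.7, 20.3 and 10.8 CPM in OPCs (36, 8 and 13 UMIs) and at 0.539, 1.37 and 0.189 in MOL5/6 (8, 4 and 2 UMIs). Cacng7 stood at 29.3, 53.2 and 36.6 CPM in OPCs (77, 21 and 44 UMIs) and at 9.10, 10.3 and 7.94 in MOL5/6 (135, 30 and 84 UMIs). Cacng8 stood at 14.5, 20.3 and 15.8 CPM in OPCs (38, 8 and 19 UMIs) and at 0.539, 0 and 0 in MOL5/6 (8, 0 and 0 UMIs).

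**Figure D2:**
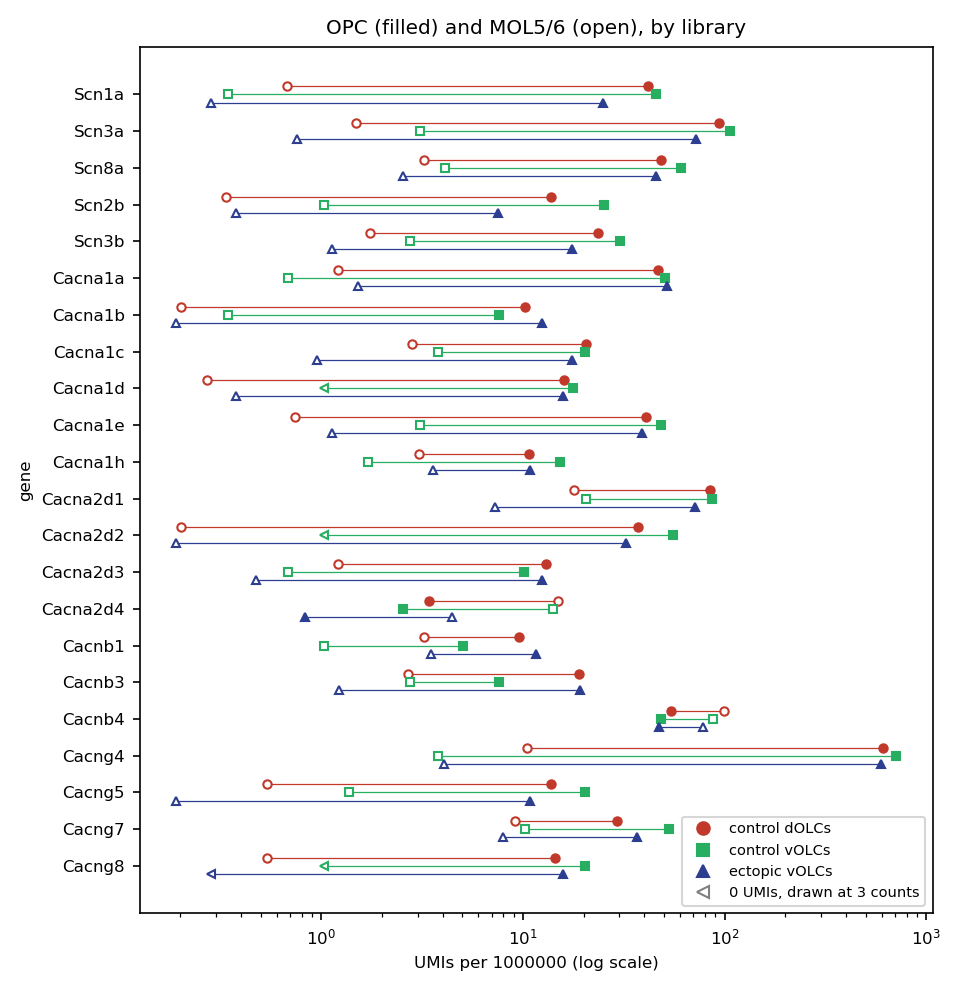
UMIs per 1000000 (log scale) of channel genes with at least 50 UMIs in OPC (filled) and MOL5/6 (open) in each library; a triangle pointing left marks 0 UMIs, drawn at the value of 3 counts. In each library the filled symbol lies right of the open one in all genes drawn but Cacnb4 and Cacna2d4, where it lies left.

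UMIs of the OPC markers were also present in the MOL5/6 profiles, and the ratio of each gene to the 5 OPC markers was therefore set beside its level. Cacng4 gave 7.20, 6.67 and 6.97 UMIs per 100 marker UMIs in OPCs and 8.54, 5.85 and 7.78 in MOL5/6, nearly the same ratio in both. Scn1a gave 0.430 and 0.548 over the 3 libraries, a log2 ratio of 0.35 (-0.55 to 1.14). Cacna2d1, in contrast, gave 0.930 per 100 marker UMIs in OPCs and 15.7 in MOL5/6, Cacng7 0.386 and 9.74, Cacna2d4 0.0299 and 12.1, and Cacnb4 0.593 and 100.1. Of the 23 genes, 17 had a ratio to OPC markers that was higher in MOL5/6 than in OPCs with an interval that leaves out no difference, and 6 had an interval that took it in (Cacng4, Scn1a, Cacna1b, Cacna1d, Cacna2d2 and Cacng8), most of them with 14 UMIs or fewer in MOL5/6. The 5 markers were picked as OPC genes, so that a gene less confined to OPCs than they are gives a higher ratio in MOL5/6. The share over all genes was not computed, so that the count of 17 does not set the channel genes apart. Which cells the channel and marker molecules in MOL5/6 came from was not tested.

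The design sets ectopic vOLCs of ablated mice against both kinds of control cell. In MOL5/6, 11 channel genes had at least 50 UMIs over the 3 libraries, and in ectopic cells 6 of them lay below control dOLCs by at least 1.5-fold with an interval that leaves out no difference, while none was higher. Over all 10393 genes 19.0% were lower by the same rule and 1.62% higher. With cells thinned to 1000 UMIs, 4 genes passed the filter and 2, Cacna2d1 and Cacna2d4, were called, and with a UMI required in 10% of cells 1 passed and none was called. The median log2 ratio of the 11 genes was -1.13, beside -0.15 over all genes. Against control vOLCs 3 were lower and 1 higher, with 14.6% and 1.78% of all genes, and medians of -0.37 and -0.11. Both comparisons use the ectopic library.

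Of the alpha2delta genes, Cacna2d1 and Cacna2d4 had enough UMIs and differed from both controls. Cacna2d1 stood at 7.28 CPM in ectopic MOL5/6 (5.75 to 9.10), below 17.9 (15.8 to 20.1) in control dOLCs and 20.5 (15.7 to 26.4) in control vOLCs. Set against control dOLCs this is -1.29 on the log2 scale (-1.68 to -0.92), and set against control vOLCs -1.50 (-2.00 to -0.98). In cells thinned to 1000 UMIs these were -2.91 and -3.30. Cacna2d4 stood at 4.45 CPM (3.27 to 5.91), below 14.9 (13.0 to 17.0) and 14.0 (10.1 to 19.0), with log2 ratios of -1.74 (-2.23 to -1.28) and -1.66 (-2.29 to -1.02). Between the controls the rule called neither gene, at 0.20 (-0.23 to 0.61) for Cacna2d1 and -0.08 (-0.60 to 0.40) for Cacna2d4. OPC marker RNA in MOL5/6 was 122, 64.4 and 52.3 CPM over the 3 libraries, and its part in these ratios was not tested. Less the median of all genes of like transcript length, the Cacna2d1 ratio to control dOLCs was -0.72 and that of Cacna2d4 -1.25.

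**Figure D3:**
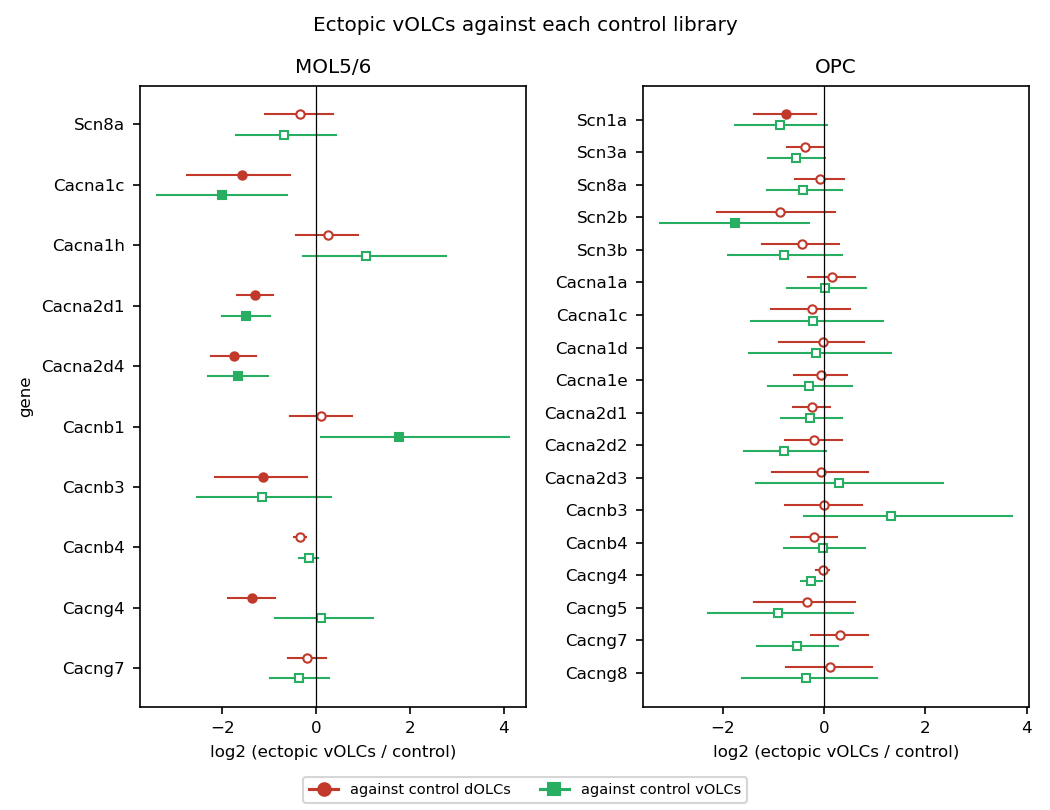
Ectopic vOLCs over control dOLCs (circles) or control vOLCs (squares) as log2 ratios for channel genes with at least 50 UMIs, in MOL5/6 (left) and OPC (right), with 95% intervals for counting error; filled symbols are at least 1.5-fold with an interval that leaves out 0. In MOL5/6 Cacna1c, Cacna2d1 and Cacna2d4 have filled symbols left of 0 against both controls, and in OPC most intervals span 0.

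The clusters within MOL5/6 were filled unequally: MOL5/6b held 1947, 236 and 42 cells, and MOL5/6a and MOL5/6d together made up most of the ectopic cells, with 900 and 837. Within the large ectopic clusters Cacna2d4 stood at 4.40 CPM in MOL5/6a against 9.73 and 9.76 in control dOLCs and vOLCs, and at 4.31 in MOL5/6d against 10.9 and 22.5, the last from 6 UMIs. The log2 ratio to control dOLCs was -1.14 (-2.25 to 0.01), not called, in MOL5/6a and -1.34 (-2.12 to -0.58) in MOL5/6d. For Cacna2d1 they were -0.66 (-1.61 to 0.34), not called, and -0.70 (-1.32 to -0.07), smaller than over MOL5/6 as a whole. In MOL5/6d Cacna2d1 stood at 7.80 CPM in ectopic vOLCs, 12.7 in control dOLCs and 7.48, from 2 UMIs, in control vOLCs. A lower level than in control vOLCs was thus not seen in that cluster. In MOL5/6c, with 63 ectopic cells, 1 UMI of Cacna2d1 was found (3.12 CPM against 21.1 in control dOLCs). In MOL5/6b no UMI of either gene was found in the ectopic cells, whose 138892 UMIs allow up to 21.6 CPM by the limit of 3 counts (exact Poisson upper bound 26.6).

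Cacnb4 differed between the clusters of MOL5/6. Over MOL5/6 as a whole it stood at -0.34 (-0.46 to -0.21) in ectopic vOLCs against control dOLCs. In controls it was higher in MOL5/6b and MOL5/6c (112 and 112 CPM in control dOLCs, 102 and 125 in control vOLCs) than in MOL5/6a (67.4 and 66.1). Taken cluster by cluster from a to d, the ratio to control dOLCs was 0.07, -0.05, -0.41 and 0.14, each with an interval that took in 0, and with equal weights it was -0.08. It was 0.24 less the median of genes of like length. MOL2a differed: Cacnb4 stood at 84.2, 77.5 and 30.5 CPM there from 170, 91 and 21 UMIs, with a log2 ratio of -1.46 (-2.19 to -0.81) to control dOLCs and -1.34 (-2.10 to -0.65) to control vOLCs. MOL2a was picked after its values were seen, and 14.8% and 12.1% of all genes were lower there by the same rule.

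**Figure D4:**
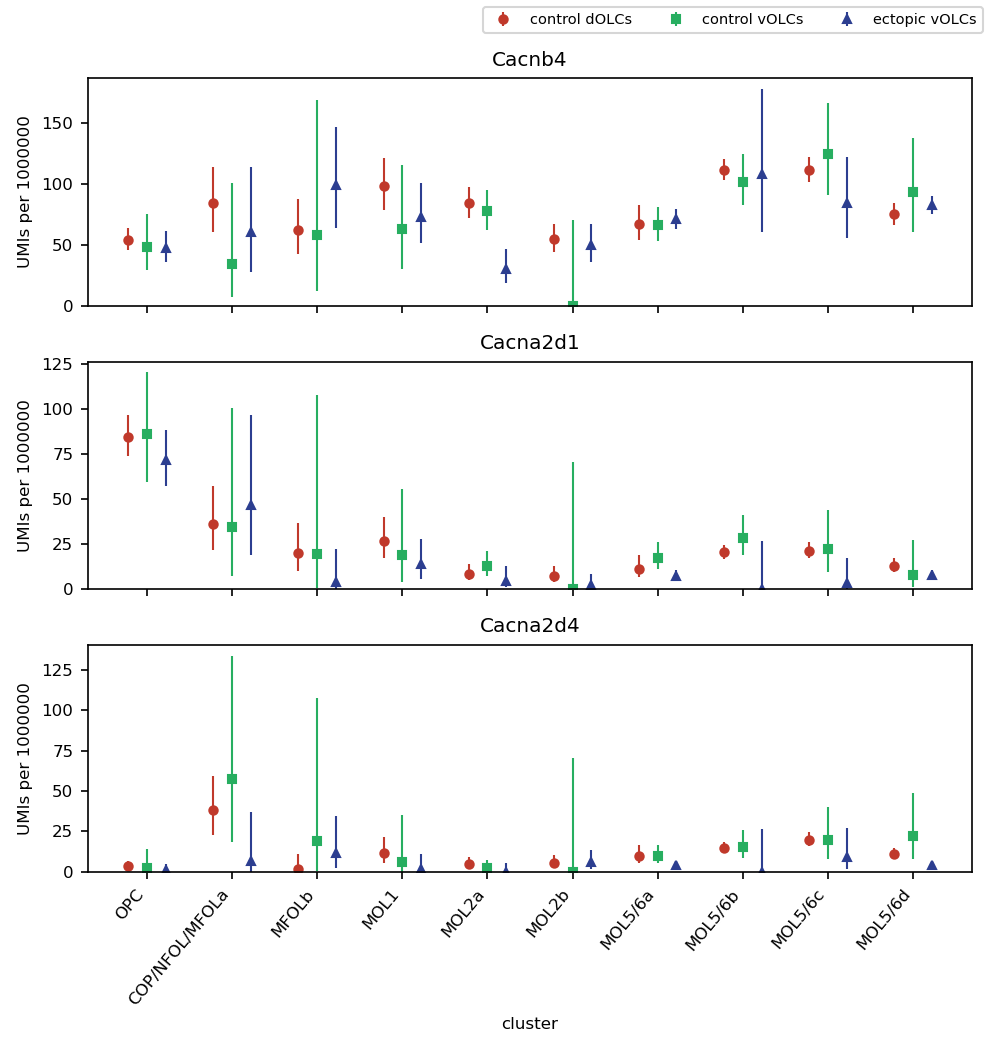
UMIs per 1000000 of Cacnb4, Cacna2d1 and Cacna2d4 in 10 clusters (cycling OPCs left out) by library, with exact Poisson 95% intervals; each panel has its own axis. Ectopic Cacnb4 lies at 30.5 in MOL2a, below both controls there, and lies beside them in MOL5/6a and MOL5/6d.

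Other genes that were lower in ectopic MOL5/6 than in control dOLCs rested on fewer molecules. Cacna1c had 42, 11 and 10 UMIs, with log2 ratios of -1.58 (-2.74 to -0.56) to control dOLCs and -1.99 (-3.39 to -0.62) to control vOLCs; less the median of genes of like length the first was -0.96 and not called. Cacnb3 had 40, 8 and 13, with -1.13 (-2.16 to -0.20) to control dOLCs, which was 0.036 in cells thinned to 1000 UMIs and was not called as a mean over cells. Cacng4 was lower than control dOLCs by 1.36 on the log2 scale in ectopic vOLCs and by 1.47 in control vOLCs (155, 11 and 43 UMIs), as were the OPC markers. Their part in its ratio was not tested. Cacnb1 was higher than in control vOLCs, at 37 against 3 UMIs (1.77, 0.11 to 4.11), and lower in control vOLCs than in control dOLCs with 48 (-1.65, -3.98 to -0.02); 3.44% of all genes were higher and 2.95% lower in that last comparison, where Cacnb1 and Cacng4 were the channel genes called. Of the genes not called, Scn8a, Cacna1h, Cacnb4 and Cacng7 had the most UMIs of their classes, and Scn8a stood at -0.34 (-1.08 to 0.37), Cacna1h at 0.25 (-0.42 to 0.90) and Cacng7 at -0.20 (-0.61 to 0.21) against control dOLCs.

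Few channel genes were called between OPCs, which hold fewer UMIs than MOL5/6. Of 19 channel genes with enough UMIs, 1 was lower and none higher in ectopic OPCs against control dOLCs (6.15% and 4.33% of all genes), 1 was lower and none higher against control vOLCs (6.09% and 8.74%), and between the controls 1 was higher in vOLCs and none lower (5.41% and 6.30%). A count of 1 in 19 is near the share over all genes. The first was Scn1a, at 25.0 CPM (16.8 to 35.6) against 41.9 (34.4 to 50.5) and 45.6 from 18 UMIs, a log2 ratio of -0.75 (-1.38 to -0.15) to control dOLCs and -0.87 (-1.76 to 0.06) to control vOLCs. The second was Scn2b, with 36, 10 and 9 UMIs (-1.76, -3.23 to -0.31), and the third Cacng7, with 77, 21 and 44 (0.86, 0.09 to 1.57). The Scn2b difference was not called without cells holding a neuronal UMI.

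The class sums in OPCs below all differed by less than 1.5-fold between ectopic and control cells. The sodium pores stood at 184, 218 and 151 CPM, which is -0.29 (-0.54 to -0.04) on the log2 scale to control dOLCs and -0.53 (-0.91 to -0.15) to control vOLCs. Adding Scn2a1 gave -0.22 (-0.43 to -0.01) and -0.50 (-0.81 to -0.17). The calcium pores gave 0.04 (-0.21 to 0.30) and -0.07 (-0.49 to 0.36), the alpha2delta genes -0.24 (-0.53 to 0.05) and -0.40 (-0.84 to 0.06), the calcium beta genes -0.06 (-0.41 to 0.28) and 0.47 (-0.19 to 1.17), and the gamma genes -0.01 (-0.14 to 0.11) and -0.30 (-0.49 to -0.11). Among the genes not called, Scn3a (-0.37), Cacna1a (0.15), Cacna2d1 (-0.24), Cacnb4 (-0.19) and Cacng4 (-0.03) had the most UMIs of their classes.

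Among 48 listed genes that work with these channels (channel regulators, calcium stores and pumps, AMPA receptor subunits and sodium pumps), 14 of the 32 past the filter were higher in OPCs than in MOL5/6 of control dOLCs and none was lower, where 13.9% and 2.12% of all genes were. The 5 largest ratios were those of the AMPA receptor subunit gene Gria3, Unc80 and Unc79 and Fam155a, which encode subunits of the NALCN sodium leak channel complex, and Atp1b1, a sodium pump subunit. Gria3 stood at 266 and 2.70 CPM and Unc80 at 59.0 and 0.876. In MOL5/6, 9 of 27 were lower and 2 higher in the ectopic library, taken against control dOLCs (19.0% and 1.62% of all genes), and 5 were lower and none higher against control vOLCs (14.6% and 1.78%), the last a share near that over all genes. Against control dOLCs, Nedd4l, a ubiquitin ligase that retrieves sodium channels from the membrane, differed most, at 1.04 and 4.11 CPM in ectopic and control cells. The AMPA subunit genes Gria2, at 19.8 and 45.7, and Gria3, at 1.32 and 2.70, were lower, as were the OPC markers (52.3 and 122 CPM), whose part in these ratios was not tested. Itpr1, a calcium release channel of the endoplasmic reticulum, was higher at 5.01 and 2.16, and so was Thbs2, a thrombospondin whose family binds alpha2delta, at 7.76 and 3.84. In OPCs 2 of 29 were higher and 2 lower against control dOLCs (4.33% and 6.15% of all genes), and 3 and 4 against control vOLCs (8.74% and 6.09%), so that the counts against control dOLCs were near the shares over all genes. Atp2a2, the calcium pump of the endoplasmic reticulum, named after its values were seen, was lower in ectopic cells of both stages, at -0.85 (-0.96 to -0.74) in MOL5/6 and -0.71 (-0.99 to -0.43) in OPCs against control dOLCs.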

How the data were processed

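Single cells of 3 P90 libraries were used; 4 P0 samples were not analysed here. Values are UMI counts per gene and cell, deposited by the authors, who per the submitters' processing notes used Cell Ranger 2.1.1 and the mm10 build. Cluster names and the cells kept (691 to 2999 genes, at most 14.99% mitochondrial counts, a percent column of the deposited annotation) are the authors'. Doublets were not called here.

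UMIs were summed per library and cell type and scaled to 1000000 (CPM). Ratios carry a conditional exact binomial 95% interval, levels an exact Poisson one and shares an exact binomial one, for counting error only. Between libraries, genes needed 50 UMIs over the 3 libraries together in that cell type, so that a ratio between libraries can rest on fewer. Between stages they needed 50 UMIs over OPCs and MOL5/6 of the library. A gene was called at 1.5-fold between libraries and 4-fold between stages, with the interval leaving out 1. With 1 library per group there is no replicate and no p-value. The ratios, intervals, calls and thinning were tested on simulated counts. For the ratios these held counting error only, with no variation between mice or libraries. Python 3.11.15, R 4.3.3, edgeR 4.0.16 (TMM) and DESeq2 1.42.0 (size factors) served for scaling alternatives; the other alternatives were the mean over cells, thinning to 1000 UMIs, filters, leaving out the top 6% of cells by UMIs or cells with a neuronal UMI, removing a length trend in 20 bins, and equal cluster weights. Named genes: every channel gene called, and of the rest the 1 with the most UMIs per class; of the genes that work with them, the 5 with the largest ratio in a comparison (given for 2 of the comparisons). The genes and lists were chosen with earlier results of these data known. Adding Scn2a1 was chosen after seeing the data. The values of some channel genes are not reported here, in text or plots, though counts over all channel genes include them.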

Additional observations from a re-analysis of the deposited data

How the results depend on the processing

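No paired analysis was possible because a single library stands for each condition, and no library could be left out for the same reason. The counts of channel genes called were within 1.5 times of those reported in 54 of 84 recomputations. With cells thinned to 1000 UMIs, ectopic vOLCs against control dOLCs gave 2 in MOL5/6 and 2 in OPC, ectopic against control vOLCs 1 and 0, control vOLCs against control dOLCs 0 and 0, and OPC against MOL5/6 6, 1 and 1 (control dOLCs, control vOLCs, ectopic vOLCs); fewer UMIs remain by construction. With no filter beyond 1 UMI, OPC against MOL5/6 gave 22, 22 and 23, ectopic against control vOLCs 7 in MOL5/6, and in OPC ectopic vOLCs against control dOLCs gave 2 and control vOLCs against control dOLCs 3. Requiring a UMI in 10% of cells gave 0 in all 3 MOL5/6 comparisons, 0 for ectopic against control vOLCs in OPC and 8 for OPC against MOL5/6 in control dOLCs. Control vOLCs against control dOLCs in MOL5/6 gave 1 with TMM, with size factors and without the cells richest in UMIs. In OPC, the mean over cells gave 2 against either control; without the cells richest in UMIs ectopic against control vOLCs gave 2 and control vOLCs against control dOLCs 0, and without cells holding a neuronal UMI ectopic against control vOLCs gave 0. OPC against MOL5/6 in control vOLCs gave 1 without such cells and 2 with the length trend removed. Cacnb3 in MOL5/6 against control dOLCs reversed to 0.036 in thinned cells, and the sum of sodium pores with Scn2a1 against control vOLCs in MOL5/6 went from -0.74 to 0.18 with clusters weighted equally. The cause of these moves was otherwise not tested. TMM and size factors moved the median of all genes by 0.15 and 0.16 for ectopic vOLCs against control dOLCs in MOL5/6, size factors by 0.11 against control vOLCs, and both by between -0.29 and -0.66 for OPC against MOL5/6. The Cacna2d1 ratio to control dOLCs ranged from -2.91 (thinned) to -0.72 (length trend removed) and that of Cacna2d4 from -2.01 to -1.25. With the length trend removed Cacna1h was also called higher against control dOLCs, at 0.82. Depth limits every gene named with fewer than 20 UMIs.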

Other observations

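Scn7a, an atypical sodium channel gene known for sensing sodium levels, fell outside the rule for named genes and was picked after its values were seen. It had 11 UMIs in all. In OPCs, 9 of 330 ectopic cells, 0 of 121 control vOLCs and 1 of 853 control dOLCs held a UMI. The ectopic level was 7.49 CPM (3.42 to 14.2), beside 0.381 (0.00964 to 2.12) in control dOLCs, and the 0 in control vOLCs allows up to 7.60 CPM by the limit of 3 counts (exact Poisson upper bound 9.35). None was found in MOL5/6 of any library. The MOL2a cluster, where Cacnb4 was lower in ectopic vOLCs, held 498, 179 and 115 cells.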
